A study of Rattus norvegicus with 8 samples.

Results

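The nuclear genes of respiratory complex I were examined in whole blood of 2 rat models of hypertension, before and after administration of Chios mastic gum (CMG), a resin of Pistacia lentiscus. They were taken as every gene in the deposited counts whose symbol is Nduf, then a, b, c, s or v, then a number, which leaves out the assembly factors named Ndufaf. This gave 36 of 17446 genes. The samples were 8 RNA sequencing libraries of male, wild type Wistar rats, 12 to 14 weeks of age, in 4 groups of 2 libraries. In the AngII model, Angiotensin II was delivered at 0.4 mg/kg/day by osmotic minipump, with blood of week 1 as the samples before CMG and blood of week 5 as those after it. In the DOCA–HS model, deoxycorticosterone acetate was injected at 100 mg/kg once a week, with 0.9% NaCl and 1% KCl in the drinking water, and the samples before and after CMG were of week 3 and week 7. CMG was given at 220 mg/kg for 4 weeks in both models. Each difference between after and before therefore also spans 4 further weeks of the hypertensive model, and no library of a group without CMG was analysed here. The minipumps were of a type rated for 4 weeks, and the sources used here do not state whether the infusion still ran when the AngII blood of week 5 was taken. The labels give cardiac puncture as the blood collection for all 8 libraries, those before CMG included. The methods of the study describe repeated blood sampling of the rats, and the sources used here do not say which libraries, if any, came from the same rat. Nothing in the labels states that the libraries of a group came from separate rats, so the p-values measure the spread between these libraries, which may be technical.

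Complex I, or NADH:ubiquinone oxidoreductase, is the entry point of the mitochondrial respiratory chain. It takes electrons from NADH, passes them through flavin and iron-sulfur clusters to ubiquinone, and pumps protons across the inner membrane. A peripheral arm in the matrix carries the redox centres and a membrane arm carries the proton pumps. The core subunits are those kept from bacteria, of which the peripheral ones are nuclear and the membrane ones mitochondrially encoded, and many nuclear accessory subunits surround them. In blood, mature red cells have lost their mitochondria, while reticulocytes, platelets and leukocytes still have them.

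By role, the genes comprised all 7 nuclear core subunits of the peripheral arm, 9 accessory subunits of the peripheral arm and 17 of 20 listed accessory subunits of the membrane arm. Ndufa3, Ndufb1 and Ndufc1 were not analysed here, and 0 of the mitochondrially encoded genes of its membrane core were found among the counts. A further 3 genes were kept by the rule but set apart, namely Ndufa4, which is now placed in complex IV, its paralog Ndufa4l2, and Ndufa10l1, a near copy of Ndufa10 whose reads the counting could split with it. All 36 symbols matched the RefSeq gene table of the GRCr8 assembly, in which they lie on 16 chromosomes.

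Promoters of 32 of the 36 genes were available from RefSeq (GRCr8), each from 250 bases before to 50 bases after the start. The 3 shown here, without the bases after the start, belong to the genes on which the comparisons below turned. Ndufa11 and Ndufb2 passed the threshold in the DOCA–HS model or between the models. The groups of Ndufa12 lay apart in opposite directions in the models under the main scaling alone (TMM, described below). Capitals mark matches to the core motif of NRF1, a transcription factor of nuclear genes for mitochondrial proteins. All 3 genes lie on the plus strand.
Ndufa11, chr9:1637364-1637613: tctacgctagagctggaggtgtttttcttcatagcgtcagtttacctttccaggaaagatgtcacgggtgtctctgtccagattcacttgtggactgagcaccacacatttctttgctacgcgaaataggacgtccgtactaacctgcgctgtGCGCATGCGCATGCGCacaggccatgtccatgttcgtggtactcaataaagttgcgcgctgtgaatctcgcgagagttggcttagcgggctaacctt
Ndufa12, chr7:30658066-30658315: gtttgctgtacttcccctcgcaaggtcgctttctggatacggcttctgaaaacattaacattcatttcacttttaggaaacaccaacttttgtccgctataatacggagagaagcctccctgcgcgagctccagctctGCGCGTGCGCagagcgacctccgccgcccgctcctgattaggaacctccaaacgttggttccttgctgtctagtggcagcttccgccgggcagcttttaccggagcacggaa
Ndufb2, chr4:69334057-69334306: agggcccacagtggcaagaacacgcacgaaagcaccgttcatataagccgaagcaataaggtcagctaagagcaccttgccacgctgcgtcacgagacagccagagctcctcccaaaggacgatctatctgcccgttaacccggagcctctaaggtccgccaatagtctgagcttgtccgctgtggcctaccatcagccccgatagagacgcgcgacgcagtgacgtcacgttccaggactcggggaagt

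The NRF1 motif was searched on both strands as GCGC, A, any base N, and GCGC. In Ndufa11 it occurred as overlapping matches that began 97 and 91 bases before the start, in Ndufa12 as a match 112 bases before the start on the other strand, and in Ndufb2 these letters were not in the window. Of the 32 promoters, 7 held the motif (21.9%), against 11.4% of the 6535 promoters of genes tested here and 4.25% of all 33469 rat promoters. YY1, searched as AANATGGCG, matched in 10 of 32 (31.2%), against 7.99% and 3.01%, and 8 of these matches, Ndufa9, Ndufs4 and Ndufs7 among them, lay after the start. The ETS core CCGGAAG, bound by GABPA, matched in 7 of 32 (21.9%), against 21% and 8.75%, and TATAAA in 3 of 32 (9.38%), against 6.61% and 14.2%. In the 3 promoters shown, no match to the other 3 motifs overlapped one of NRF1. A match describes letters in the window and does not show that a factor binds there.

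Counts of the complex I genes were low in all libraries, and they rested on a small part of each library. Total counts ranged from 4149104 to 13205565 per library, and Hbb together with LOC100134871, taken as a hemoglobin gene, held 61.9% to 84.3% of them. The summed counts of the 36 genes were 3725 and 2005 before and 1606 and 2811 after CMG in the AngII model. They were 3815 and 2261 before and 2762 and 906 after CMG in the DOCA–HS model. The second DOCA–HS library after CMG stood apart, with the lowest total, the highest hemoglobin share and 651764 counts outside hemoglobin, against 2195735 to 4490083 in the other libraries. In this library 22 of the 36 genes reached 10 counts, against 29 to 33 in the others, and 1 count was worth 0.703 CPM. Erythroid, platelet and leukocyte markers were detected in every library, as whole blood would give, whereas heart muscle markers reached at most 1 count in a library. Counts of 5 hepatocyte markers summed to 0 or 1 in each library before CMG and to 6 and 11 after it in AngII rats, and 20 and 9 in DOCA–HS rats, and their part in the results was not tested.

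The level of complex I as a whole depended on what it was set against. As CPM of the total counts, the 36 genes had 282 and 263 before and 236 and 283 after CMG in AngII rats, and 396 and 277 before and 305 and 218 after CMG in the DOCA–HS model. Per 10000 counts outside hemoglobin, the values were 8.30 and 8.73 before and 7.31 and 8.99 after CMG in AngII rats, and 10.4 and 9.54 before and 9.28 and 13.9 after CMG in the DOCA–HS model. After TMM normalization, which sets the bulk of the genes equal between libraries, the summed CPM was 293 and 339 before and 257 and 208 after CMG in AngII rats, and 211 and 240 before and 212 and 637 after CMG in the DOCA–HS model. The second DOCA–HS library after CMG was thus the lowest of the 8 per total count and the highest under the other 2 scalings. In the AngII model the groups lay apart under TMM and overlapped under the other 2. Values in CPM below are TMM-normalized, with factors over all 8 libraries, and are not corrected for gene length, so they compare libraries and not genes.

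**Figure D1:**
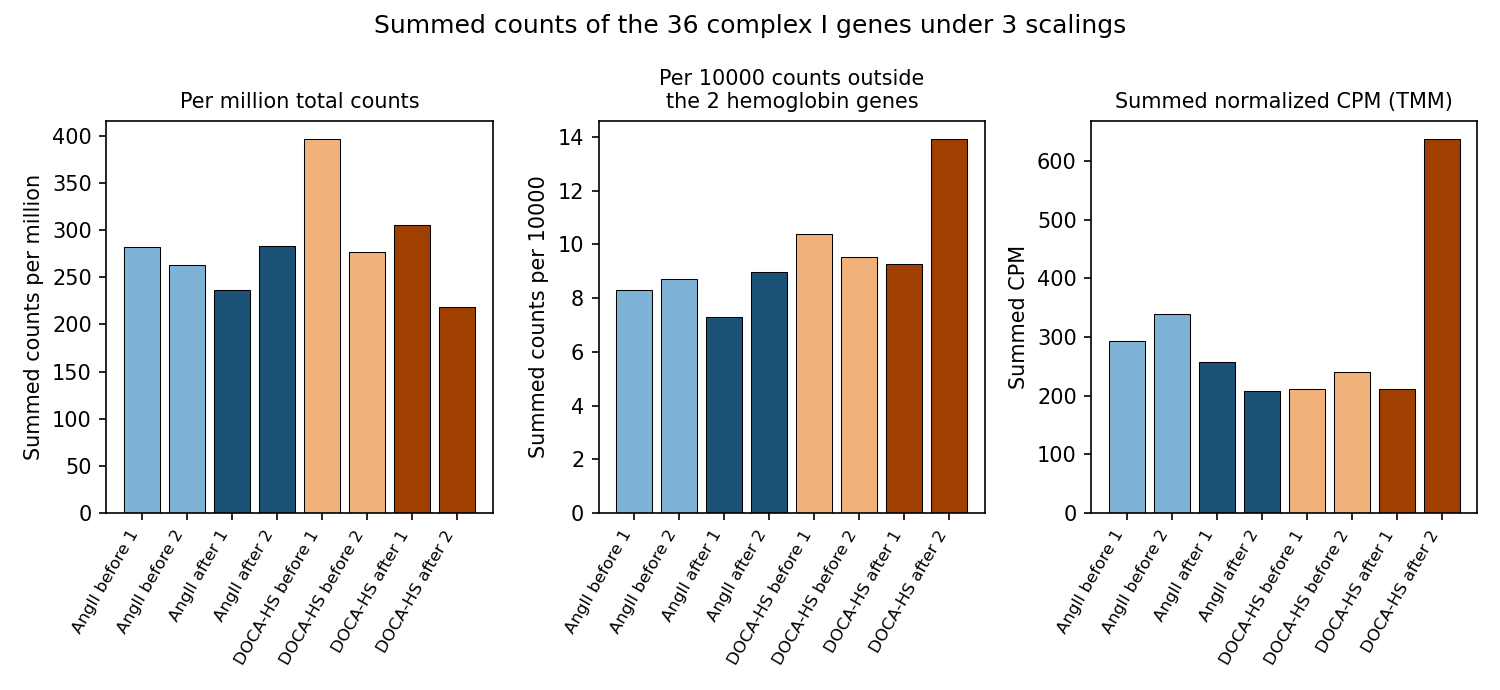
Summed counts of the 36 complex I genes in each of the 8 libraries, as CPM of the total counts (left), per 10000 counts outside the 2 hemoglobin genes (middle) and as summed TMM-normalized CPM (right). Each bar is 1 library, coloured by group, and the second DOCA–HS library after CMG is the lowest bar on the left (218) and the highest on the right (637).

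The largest mean count belonged to Ndufb11, an accessory subunit of the membrane arm. Its CPM was 33.9 and 38.2 before and 33.8 and 21.4 after CMG in AngII rats, and 17.2 and 22.0 before and 19.4 and 64.7 after CMG in the DOCA–HS model. The AngII groups lay only just apart, and in the DOCA–HS model the first library after CMG fell within the range before it and the second above. The lowest mean count belonged to Ndufa4l2, with 1 count in all, in the first DOCA–HS library after CMG. A count of 0 in a library allows up to 3 counts (one-sided limit at 95%, counting error only). Of the 36 genes, 31 passed the filter on low counts in both models, Ndufs5 passed it in the DOCA–HS model alone, and Ndufa1, Ndufa10l1, Ndufa4l2 and Ndufs6 passed it in neither. A gene can pass this filter through the higher group alone.

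**Figure D2:**
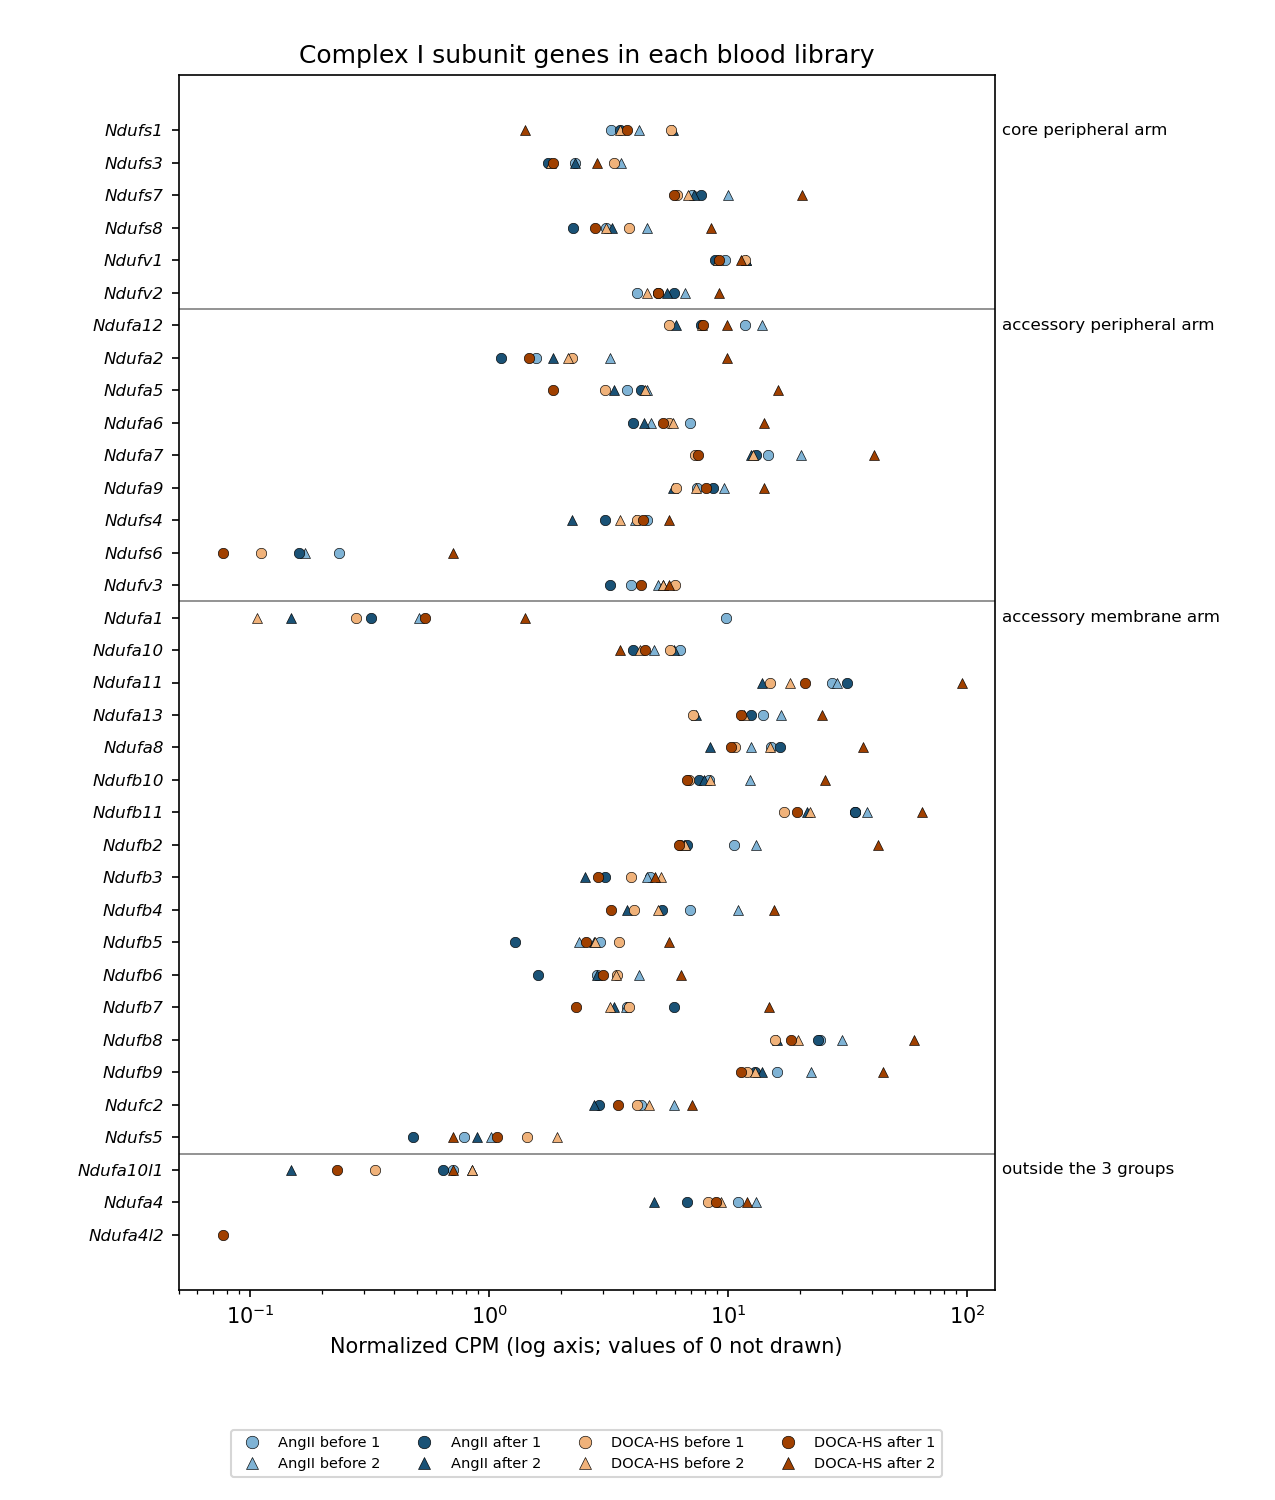
TMM-normalized CPM on a log axis for 35 of the 36 genes (rows, grouped by role) in each of the 8 libraries (points; circles replicate 1, triangles replicate 2; light colours before, dark colours after CMG). The second DOCA–HS library after CMG (dark orange triangles) lies to the right for most accessory subunits, such as Ndufb2 at 42.2 CPM, and to the left for the core subunit Ndufs1, at 1.41 CPM.

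The first comparison asked which complex I genes differed after CMG in the AngII model. Most members were lower after CMG under TMM, by a small amount, and none reached the threshold of the study. At a log2 fold change beyond 1.5 with an unadjusted p-value of at most 0.05, 0 of 31 members were upregulated and 0 downregulated, where 0.903% and 0.333% of the 7201 genes tested were (edgeR's quasi-likelihood test). The median log2 fold change of the members was -0.38, against -0.01 over all genes tested, and 28 of 31 lay below 0, where 51% of all genes did. When 1 library was left out, the members' median ranged from -0.60 to -0.28. By library, the 2 after CMG differed from the first before it by a median log2 difference of -0.28 and -0.21, and from the second by -0.56 and -0.63. Within the groups, second minus first, the members' median was 0.30 before and -0.07 after CMG. The spread before CMG was thus of the size of the smaller of these differences. With libraries scaled to total counts or to counts outside hemoglobin, the members' median was -0.03 and -0.02, and 17 of 31 lay below 0 under each. By role, the median was -0.16 for the core subunits, -0.44 for the accessory subunits of the peripheral arm and -0.43 for those of the membrane arm. With the fold threshold left aside, 5 members had an unadjusted p of at most 0.05, all lower after CMG, where 1.61% of all genes were lower and 5.04% higher at that p. None of the 36 had an adjusted p under 0.05, and neither had any gene of this comparison, the smallest being 0.474.

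These 5 members were Ndufa4, Ndufa12, Ndufb2, Ndufb4 and Ndufc2. The CPM of Ndufa4, the complex IV subunit, was 10.9 and 13.0 before and 6.72 and 4.88 after CMG. That of Ndufa12, which sits on the peripheral arm, was 11.7 and 13.9 before and 7.68 and 6.06 after CMG. For both, the 2 libraries after CMG lay below the 2 before it. Ndufa4 had a log2 fold change of -1.03 (SE 0.31), with an unadjusted p of 0.0109 and an adjusted p of 0.628 in edgeR. Ndufa12 had one of -0.88 (SE 0.30), with p of 0.0196 and the same adjusted p in edgeR.

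The other 3 belong to the membrane arm. The CPM of Ndufb2 was 10.6 and 13.0 before and 6.72 and 6.51 after CMG, a mean ± SD of 11.8 ± 1.69 against 6.61 ± 0.149 (n = 2 each). That of Ndufb4 was 6.92 and 11.0 before and 5.28 and 3.77 after CMG, and that of Ndufc2 was 4.32 and 5.91 before and 2.88 and 2.74 after CMG. Again the groups did not overlap for any of the 3. Their log2 fold changes were -0.81 (SE 0.29), -0.96 (SE 0.35) and -0.83 (SE 0.33), with unadjusted p of 0.0237, 0.0246 and 0.0364 and adjusted p of 0.663, 0.663 and 0.717 in edgeR. All 5 genes had negative log2 fold changes under every alternative run, but with the scalings to totals their unadjusted p was 0.197 to 0.478, and only Ndufa4 kept a p under the threshold with DESeq2 (0.0290). In 1 fit of all 8 libraries the p of Ndufb2, Ndufb4 and Ndufc2 was 0.238, 0.123 and 0.0628. When 1 library was left out, with the other 7 of both models in the fit, Ndufa4 kept it without the first library before (0.0367) or the first after CMG (0.0237), not without the second before (0.0833) or the second after (0.122), and the other 4 had a p of 0.0511 to 0.419.

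Among all tested members, 15 of 31 had both libraries after CMG below both before it, and 0 had both above, where 18.5% and 21.3% of all genes tested did so. These 15 comprised 10 of the membrane arm, 4 accessory subunits of the peripheral arm (Ndufa6, Ndufa7, Ndufa12 and Ndufs4) and Ndufa4, and 0 of the 7 core subunits. Scaled to total counts, 9 lay apart lower and 4 higher (all genes 4.43% and 31.4%), and scaled to counts outside hemoglobin, 8 and 2 (4.29% and 32.9%). Lower under all 3 scalings were Ndufa4, Ndufa12, Ndufa13, Ndufb2, Ndufb3, Ndufb4, Ndufc2 and Ndufs4. The median log2 fold change of all genes moved from -0.01 under TMM to 0.36 and 0.38 under these scalings, and the members' median relative to it was -0.37 under TMM, -0.39 under total counts and -0.40 outside hemoglobin.

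Under TMM the AngII groups overlapped for each of the core subunits, and the core subunits were not tested against the others. Ndufv2 lay apart, higher after CMG, when scaled to total counts. Ndufv1, which binds NADH and the flavin, had a CPM of 9.67 and 11.8 before and 8.80 and 11.8 after CMG. Ndufv2, its iron-sulfur partner, had 4.17 and 6.59 before and 5.92 and 5.55 after CMG, and Ndufs1, the largest subunit of that arm, had 3.22 and 4.22 before and 3.52 and 5.84 after CMG. These 3 had log2 fold changes of -0.02 (SE 0.30), 0.14 (SE 0.32) and 0.40 (SE 0.36), the last 2 being among the 3 highest of the members.

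Other core subunits lie nearer to the quinone site. Ndufs3 had 2.28 and 3.55 CPM before and 1.76 and 2.29 after CMG. Ndufs7, which carries the last iron-sulfur cluster before ubiquinone, had 7.07 and 9.97 before and 7.68 and 7.17 after CMG, and Ndufs8 had 3.07 and 4.56 before and 2.24 and 3.25 after CMG. None of these 3 had groups apart, and their log2 fold changes lay between -0.43 and -0.16. The remaining member with a high value was Ndufb7 of the membrane arm, at 3.77 and 3.72 CPM before and 5.92 and 3.33 after CMG, with a log2 fold change of 0.28 (SE 0.37) and libraries after CMG on either side of those before it.

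The same comparison in the DOCA–HS model gave 1 upregulated and 0 downregulated of 32 members, where 1.79% and 0.259% of the 7720 genes tested were upregulated and downregulated (edgeR). The gene was Ndufa11, a membrane arm subunit at the junction with the peripheral arm. Its CPM was 15.0 and 18.1 before and 20.8 and 94.9 after CMG, from 270, 170, 271 and 135 counts. Both libraries after CMG lay above both before it, by far the most in the second. The log2 fold change was 1.79 (SE 0.71), a 3.45-fold change, with an unadjusted p of 0.0340 and an adjusted p of 0.997 in edgeR. No other member had an unadjusted p of at most 0.05, where 2.73% of all genes were higher and 0.44% lower at that p. Without the second library after CMG the log2 fold change was 0.34 and Ndufa11 did not pass, and without the first it was 2.52. The call was also lost without the first or the second library before CMG (1.60 with an unadjusted p of 0.117, and 1.95 with p of 0.0638 in edgeR). With a block for the replicate number the log2 fold change was 1.43, under the threshold, while the unadjusted p was 0.0145 in edgeR.

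Most other members also had higher values after CMG in this model, and this rested on the second library after CMG. The median log2 fold change was 0.52, against -0.04 over all genes tested, with 24 of 32 above 0, where 47.5% of all genes were. Without the second library after CMG it was -0.18, with 9 of 33 members above 0 and 0 called, and without the first it was 1.27, with 13 of 33 called higher and 1 lower, where 6.56% of all genes were higher and 12.5% lower in that fit. By library, the members of the first library after CMG differed from the 2 before it by a median log2 difference of -0.08 and -0.14, and those of the second by 1.19 and 1.06. The difference between the 2 libraries after CMG, 1.11, was as large, and the chi-square per degree of freedom between the 2 libraries of a group over the members was 42.4 here, against 3.25 to 6.24 in the other groups. Over all genes a chi-square per degree of freedom was 99.7 here and 104 in the DOCA–HS group before CMG, against 17.6 and 23.9 in the AngII groups. Its expected counts came from summed counts with hemoglobin included, and those of the members from TMM, so the 2 sets of values cannot be compared. The members' median difference between the groups, 0.52, was smaller than that between the 2 libraries after CMG, 1.11. Scaled to total counts, the median of the members was -0.45 against -0.76 over all genes, and scaled to counts outside hemoglobin, 0.01 against -0.41, so the members' median relative to all genes was 0.56 under TMM, 0.31 and 0.42. Ndufa11 did not pass under either scaling, with log2 fold changes of 0.36 and 1.03.

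**Figure D3:**
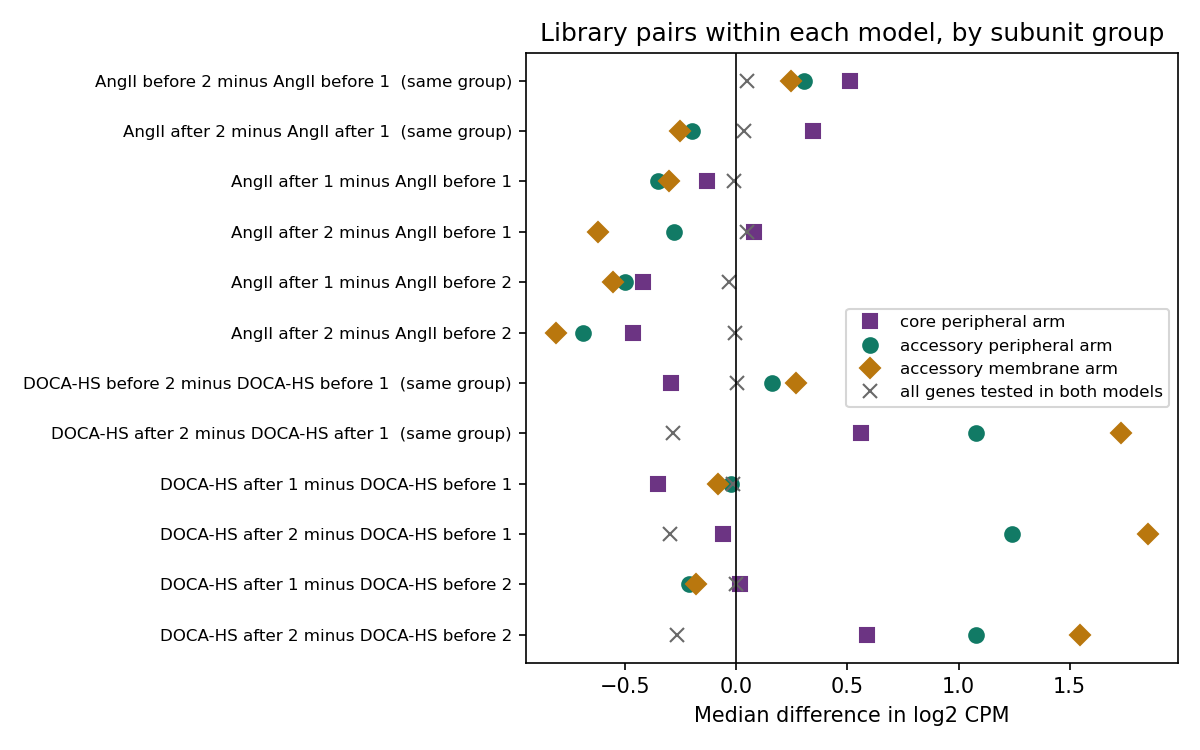
Median difference in log2 CPM of the complex I genes between 2 libraries of a model, by role (squares, circles and diamonds), with the median of all genes tested in both models (crosses). The pairs that hold the second DOCA–HS library after CMG give membrane arm medians of up to 1.85. The pairs of the first with the libraries before CMG give medians by role from -0.35 to 0.02.

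Ndufb2 had the largest log2 fold change among the members in the DOCA–HS model, 1.82 (SE 0.80), with an unadjusted p of 0.0511, just outside the threshold. Its CPM was 6.26 and 6.59 before and 6.23 and 42.2 after CMG, and the first library after CMG lay below both before it. After Ndufb2 and Ndufa11 came Ndufa7, an accessory subunit of the peripheral arm, at 7.26 and 12.6 CPM before and 7.46 and 40.8 after CMG, with a log2 fold change of 1.20 (SE 0.76). Ndufb4 and Ndufb7 had the same shape, with 4.04 and 5.10 CPM before and 3.23 and 15.5 after CMG for the former, and 3.82 and 3.19 before and 2.31 and 14.8 after CMG for the latter. In all 4 genes 1 library after CMG lay within or below the range before CMG and the other above it.

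Members with both libraries after CMG above both before it were 4 of 32 (Ndufa9, Ndufa11, Ndufa12 and Ndufs4), and 1 had both below (Ndufs5), where 14.7% and 21.1% of all genes tested did so. On the scale of total counts, 1 lay apart higher (Ndufa11) and 6 lower (all genes 1.4% and 23.9%), and on that of counts outside hemoglobin, 4 and 5 (6.46% and 27.9%). Under TMM, Ndufa12 had 5.65 and 7.75 CPM before and 7.84 and 9.84 after CMG, and Ndufs4, a peripheral arm subunit whose loss causes a mitochondrial disease, had 4.15 and 3.51 before and 4.38 and 5.63 after CMG. The gaps between the groups were small beside the differences within them for both genes. Ndufs5, a membrane arm subunit, had 1.44 and 1.91 CPM before and 1.08 and 0.703 after CMG, the last being 1 count, with a log2 fold change of -0.70 (SE 0.63), the lowest of the members. Ndufa4 and Ndufc2, among the 5 above in the AngII model, had 8.25 and 9.35 before and 8.84 and 11.95 after CMG, and 4.15 and 4.67 before and 3.46 and 7.03 after CMG. Both overlapped between the groups here.

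In the second DOCA–HS library after CMG neither the core nor the accessory subunits all went the same way. Ndufs1 had 5.76 and 3.51 CPM before and 3.77 and 1.41 after CMG, the last from 2 counts. Ndufs3 had 3.32 and 1.81 before and 1.85 and 2.81 after CMG. In both the second library after CMG lay within or below the range before it, and their log2 fold changes were -0.58 (SE 0.54) and -0.35 (SE 0.57). Ndufv1, at 11.7 and 9.03 before and 9.15 and 11.3 after CMG, stayed within the range before CMG. Among accessory subunits, Ndufb3 and Ndufv3, at 4.92 and 5.63 CPM in that library, also lay within their range before CMG, and Ndufa10, at 3.52, lay below it, as did Ndufs5.

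Other core subunits were raised in that library. Ndufv2 had 5.10 and 4.57 CPM before and 5.07 and 9.14 after CMG, Ndufs7 had 6.09 and 6.80 before and 5.92 and 20.4 after CMG, and Ndufs8 had 3.82 and 3.08 before and 2.77 and 8.44 after CMG. For each of them the first library after CMG lay within or below the range before CMG. In this model the medians were -0.05 for the core subunits, 0.63 for the accessory subunits of the peripheral arm and 0.84 for those of the membrane arm, and a difference between these groups was not tested.

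**Figure D4:**
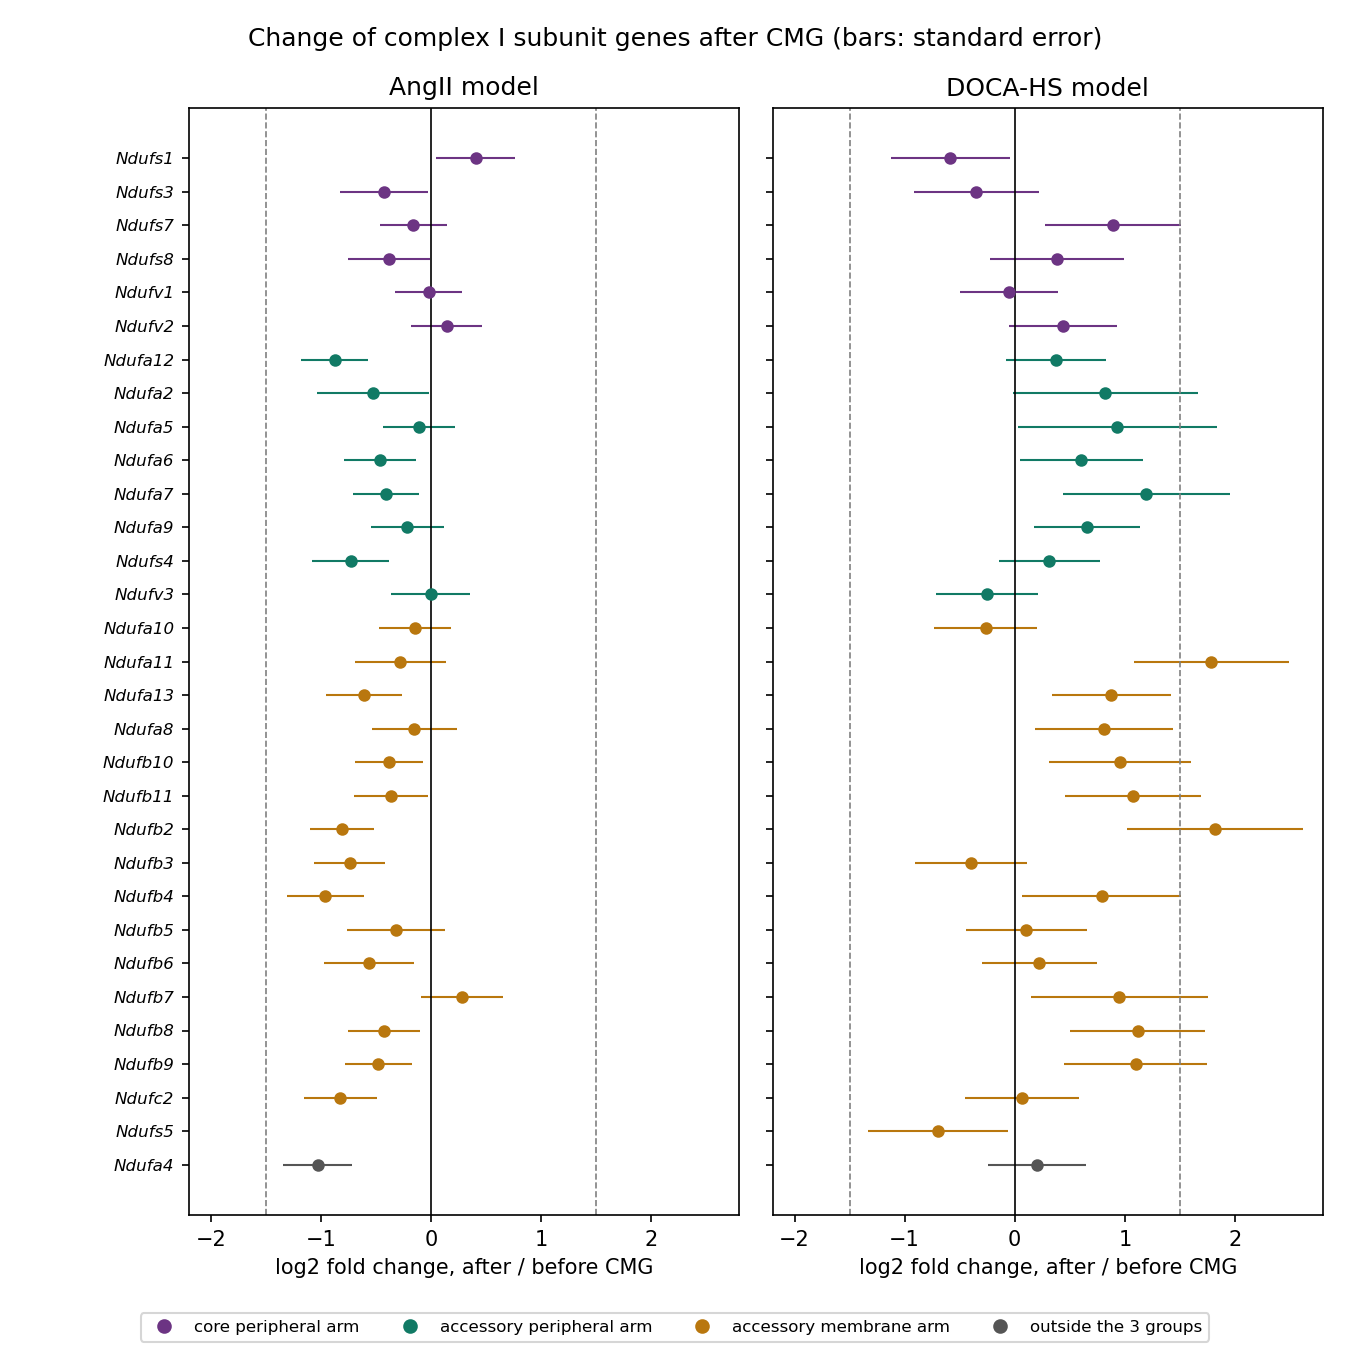
Log2 fold change after against before CMG of the tested complex I genes in the AngII model (left, 30 of 31 drawn) and the DOCA–HS model (right, 31 of 32 drawn), with bars of 1 standard error, coloured by role; dashed lines mark the threshold of 1.5 in either direction. On the left 27 of 30 points lie below 0, and on the right 24 of 31 lie above it with wider bars, Ndufa11 at 1.79 and Ndufb2 at 1.82.

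The shares of the complex I counts that the subunit groups took do not depend on the scaling of a library. With Ndufa1 left out for the reason given below, the core subunits held 12.3% and 14.3% of the counts before and 13.5% and 19.9% after CMG in AngII rats, and 19.7% and 15.1% before and 16.3% and 8.74% after CMG in the DOCA–HS model. The last value, 79 of 904 counts (95% Wilson interval 7.07% to 10.8%), was the lowest of the 8. The accessory subunits of the membrane arm held 64.3% and 62.3% before and 66.0% and 57.7% after CMG in AngII rats, and 57.2% and 60.2% before and 60.1% and 70.9% after CMG in the DOCA–HS model, the last (67.9% to 73.8%) being the highest. The accessory subunits of the peripheral arm held between 17.6% and 20.4% in all libraries. In neither model did these shares separate all libraries after CMG from those before it for the membrane arm, and the intervals cover counting error only.

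**Figure D5:**
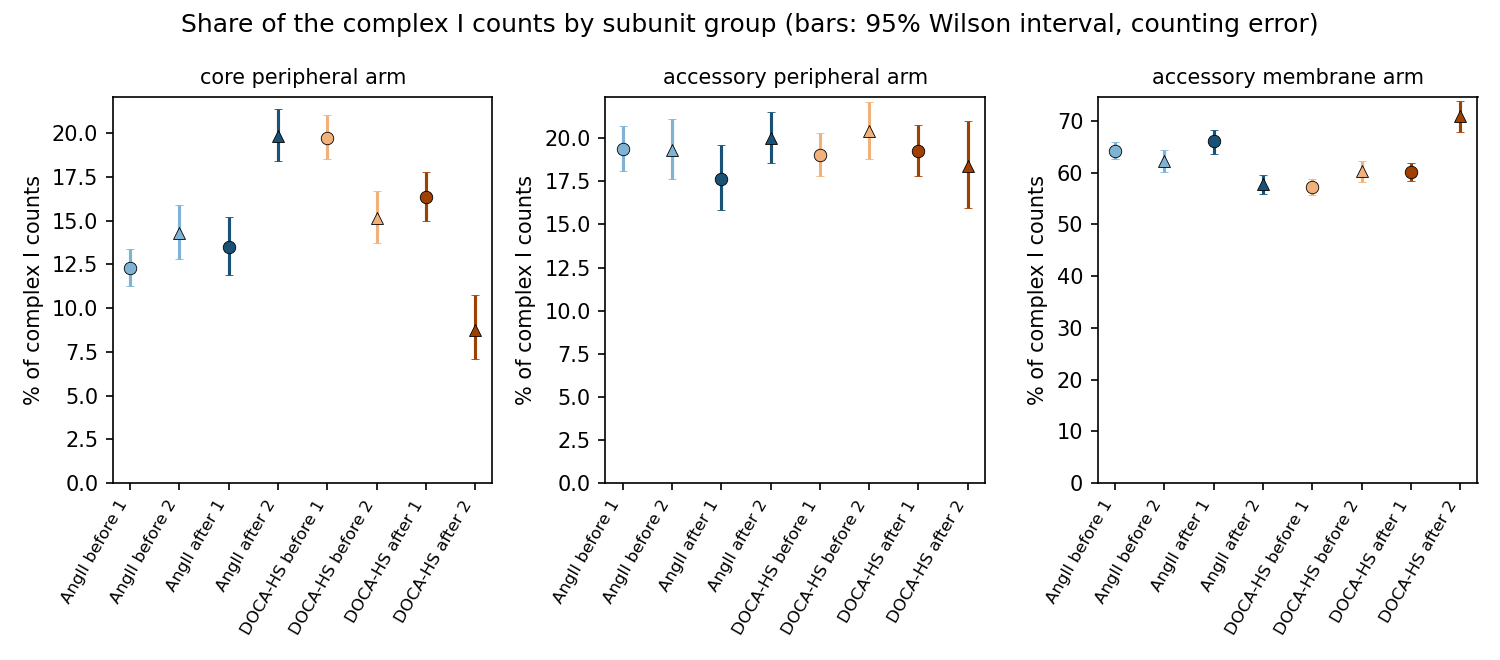
Share of the complex I counts, without Ndufa1, held by the core subunits, the accessory subunits of the peripheral arm and those of the membrane arm in each library, in percent with 95% Wilson intervals for counting error. The second DOCA–HS library after CMG has the lowest core share (8.74%) and the highest membrane arm share (70.9%).

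Ndufa1, a small membrane arm subunit, was left out of the shares because 1 library held most of its counts, and it is described here after its values were seen. It had 125 and 3 counts before and 2 and 2 after CMG in AngII rats, and 5 and 1 before and 7 and 2 after CMG in the DOCA–HS model. In the first AngII library before CMG this was 9.83 CPM, 6.99 times the next library, which was at 1.41. Among genes with at least 100 counts in a library, it was the 1 gene in that library at least 5 times above the next library, where 6 genes in the second DOCA–HS library after CMG and 0 in the others met this. The second AngII library before CMG did not share the high value.

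Whether the change after CMG differed between the models was tested in a fit over all 8 libraries. Of 32 members, 2 passed with a higher change in the DOCA–HS model and 0 with a lower one, where 2.25% and 0.913% of the 7994 genes tested did (edgeR). Ndufb2 had a difference of the log2 changes of 2.61 (SE 0.96), with an unadjusted p of 0.0201, and Ndufa11 one of 2.08 (SE 0.90), with p of 0.0424, each with an adjusted p of 0.881 in edgeR. The median difference over the members was 0.95, against -0.12 over all genes, with 26 of 32 above 0, where 44.5% of all genes were. At an unadjusted p of at most 0.05, 5 members had a higher difference and 0 a lower one, where 2.53% and 1.21% of all genes did. Among the 31 members tested in each model, 22 were lower after CMG in the AngII model and higher in the DOCA–HS model, 6 lower in both, 2 higher in both and 1 higher in the AngII model alone. Without the second DOCA–HS library after CMG the median difference was 0.21, and the 1 member called was Ndufa1. Scaled to total counts, the median difference was -0.43, against -1.21 over all genes, with 6 of 32 above 0, and outside hemoglobin it was 0.05, against -0.89, with 19 of 32 above 0. No member was called under either scaling, where 0.4% and 2.05% of all genes were.

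The models were also compared with each other at each time, in the same fit, where the week of sampling differed too. Before CMG, 0 of 32 members passed in either direction, where 0.425% of all genes were higher and 0.413% lower in the DOCA–HS model. The members' median log2 difference was -0.16, against 0.06 over all genes, and 27 of 32 were lower in the DOCA–HS model, where 44.8% of all genes were. When 1 library was left out, this median ranged from -0.43 to -0.14. Ndufa12, at 5.65 and 7.75 CPM against 11.7 and 13.9 in the AngII model, had a log2 difference of -0.93 (SE 0.36) with an unadjusted p of 0.0251 and an adjusted p of 0.992 in edgeR, the 1 member at that p, where 1.89% of all genes were lower and 1.49% higher. Members that lay apart were 12 lower and 2 higher in the DOCA–HS model, where 21.2% and 24.3% of all genes did so. Scaled to total counts, the median was 0.63, against 0.86 over all genes. The members' median relative to all genes was thus -0.22 under TMM and -0.23 under total counts. On the latter scale 1 member lay apart lower, Ndufa12, and 19 higher, where 2.1% and 61.1% of all genes did.

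After CMG, 1 member was higher in the DOCA–HS model and 0 lower, where 1.09% and 0.313% of all genes were. This was Ndufb2, at 6.23 and 42.2 CPM against 6.72 and 6.51 in the AngII model, with a log2 difference of 1.74 (SE 0.70), an unadjusted p of 0.0301 and an adjusted p of 1.00 in edgeR, the 1 member at that p, where 2.05% of all genes were higher and 0.738% lower. The first DOCA–HS library lay below both AngII libraries, so the call rested on the second. The median was 0.67, against -0.04 over all genes, with 27 of 32 above 0, where 46.5% of all genes were, and -0.09 without the second DOCA–HS library. Members that lay apart were 6 higher (Ndufa4, Ndufa6, Ndufa12, Ndufb6, Ndufc2 and Ndufs4) and 0 lower, where 10.8% and 15.9% of all genes did so. With total counts as the scale, those apart were 2 higher, Ndufa11 and Ndufb2, and 1 lower, Ndufb11 (all genes 2.49% and 7.71%), none of them among the 6, and outside hemoglobin 9 were higher and 0 lower (9.22% and 6.23%).

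Genes that work with complex I were read from lists of symbols. The assembly factors, which build the complex and are not part of it, had a median log2 fold change of -0.07 over 9 tested genes in the AngII model and of -0.16 over 11 in the DOCA–HS model, with 0 called in either. Complex II, which also feeds electrons to ubiquinone, had medians of -0.06 and -0.03 over its 4 genes, with 0 called. The regulators of mitochondrial biogenesis had medians of 0.02 over 9 and -0.23 over 10 genes with 0 called, and Ppargc1a, which encodes their coactivator, was at 0 counts in all 8 libraries. The other dehydrogenases that reduce ubiquinone or oxidize NADH had medians of 0.40 over 3 and -0.23 over 4 genes, with 0 called. In none of these 4 lists was the median above 0 in the DOCA–HS model. Most of these genes had few counts in the second DOCA–HS library after CMG, such as Acad9 at 0, Nrf1 at 1, Gabpa at 2 and Sdha at 8. Ndufaf8 was at 31 there. This depth limits a contrast of these lists with others in that model.

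Complexes III and IV and ATP synthase, by contrast, had medians close to those of complex I, -0.42 over 35 genes in the AngII model with 0 called and 0.74 over 35 in the DOCA–HS model with 5 called, all higher, where 1.79% of all genes were. The members called there included Atp5me of ATP synthase, with a log2 fold change of 2.53 (SE 0.70, unadjusted p of 0.00639), and Atp5mg, with 2.11 (SE 0.79, p of 0.0269). The others were Uqcrh and Uqcr10 of complex III, at 1.76 (SE 0.74, p of 0.0425) and 1.65 (SE 0.69, p of 0.0419), and Cox7a2 of complex IV, at 1.69 (SE 0.72, p of 0.0452). All 5 had an adjusted p of 0.997 in edgeR. Their calls, too, rested on the second library after CMG: without it 0 of 36 were called, and without the first 16 were called higher and 2 lower, where 6.56% and 12.5% of all genes were in that fit. Atp5me, for one, had 9.86 and 9.56 CPM before and 21.8 and 92.8 after CMG. Without the first library before CMG 1 was called (Atp5me) and without the second 3, and 0 were called when scaled to total counts and 1 outside hemoglobin (Atp5me).

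Red cell and platelet markers, like complex I, had their highest summed CPM in the second DOCA–HS library after CMG, and in whole blood a change in the number of cells of a type and in the RNA per cell cannot be told apart. The summed CPM of 7 erythroid markers without hemoglobin was 20389 and 26717 before and 20170 and 12974 after CMG in AngII rats, and 10214 and 14339 before and 10936 and 35789 after CMG in the DOCA–HS model. For the 6 of them tested, all but Gata1, the median log2 fold change was -0.47 for AngII and 0.51 for DOCA–HS rats, and the median log2 difference between the models before CMG was -1.05. Gata1 was at 0 in the second AngII library after CMG, and all 7 were detected in the other libraries. The summed CPM of 6 platelet markers was 646 and 179 before and 581 and 60.4 after CMG in AngII rats, and 220 and 307 before and 639 and 959 after CMG in the DOCA–HS model, where Pf4 and Treml1 passed the threshold, which 1.79% of all genes did in that direction. Both calls were lost under either other scaling and when any 1 DOCA–HS library was left out. The platelet sum was also above both libraries before CMG in the first DOCA–HS library after CMG, and it overlapped between the AngII groups. The platelet list was not uniform in the second DOCA–HS library after CMG. Pf4, Treml1 and Gp9 were raised there, at 710, 205 and 30.2 CPM, while Itgb3, Gp1ba and Ppbp, at 7.73, 2.81 and 3.52, lay below both libraries before CMG. The part of either cell type in the complex I values was not tested.

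Leukocyte markers differed among themselves. In the AngII model the median log2 fold change was 0.69 for 6 tested monocyte markers, 0.72 for 7 of cytotoxic lymphocytes, 0.25 for 6 of B cells, -0.22 for 8 of neutrophils and -0.40 for 8 of T cells. In DOCA–HS rats these were 0.29, 0.11, -0.92, -0.02 and -0.38. In the second DOCA–HS library after CMG the markers Cd14, Cd4, Cd5, Blk and Klrb1c were at 0, and the B cell sum was 33.8 CPM from 48 counts, against 52.5 to 113 CPM in the other libraries. The T cell sum was 134 CPM there, against 146 to 222 in the others, and the monocyte sum was 392, against 404 to 684. The neutrophil sum, by contrast, was 491 CPM there, the highest of the 8 and against 132 to 420 in the others, as for complex I. It was carried by S100a8 and S100a9, at 167 and 287 CPM there, while Csf3r, Cxcr2, Mmp8 and Ngp, at 16.9, 0.703, 3.52 and 3.52, lay below both DOCA–HS libraries before CMG. Ngp passed the threshold as lower in DOCA–HS rats (log2 fold change -3.27, SE 1.05), where 0.259% of all genes did. Among the cytotoxic markers 1 passed as higher in each model, where 0.903% (AngII) and 1.79% (DOCA–HS) of all genes did. The cytotoxic sum, 62.6 CPM, lay above both DOCA–HS libraries before CMG, at 37.4 and 50.6, and below both AngII libraries after CMG, at 84.0 and 74.5.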

How the data were processed

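Whole blood of the AngII and DOCA–HS models was sequenced in 8 libraries, 2 before and 2 after CMG in each model. The authors used HISAT2 (rn6) for alignment of single-end reads and HTSeq for strand-specific counting per gene, and the deposited counts are not normalized. They state that hemoglobin annotations were removed, yet Hbb and LOC100134871 are the most abundant genes in the counts. Of 17446 genes, 5754 had no count. The counts hold 0 columns beyond the 8 libraries.

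Each model's 4 libraries were fitted separately in edgeR 4.0.16 with R 4.3.3 (filterByExpr, TMM, glmQLFit and glmQLFTest), after against before CMG. The authors used DESeq2, which was an alternative here (1.42.0). The threshold was that of the study (log2 fold change above 1.5 in size, unadjusted p at most 0.05), and Benjamini-Hochberg adjustment ran over all genes tested. A fit of all 8 libraries with 4 group means gave the comparisons between the models. CPM used TMM factors over the 8 libraries, and log2 CPM of single libraries used a prior count of 2. Library pairs were compared over the 31 members tested in both models. The computation was tested on simulated counts.

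Full values are given for members past the threshold in any comparison, for those with an unadjusted p of at most 0.05 after against before CMG, for the 3 highest and 3 lowest log2 fold changes in each model, for core subunits, and for the highest and lowest mean count. Other members are given by ranges and counts, 1 member is not reported here by itself though it is counted among the members, and Ndufa1 was named after its values were seen. The members and the lists of other genes were chosen with earlier results of these data known. The alternatives used the DESeq2 test, edgeR with DESeq2 size factors, limma-voom (limma 3.58.1), libraries scaled to total counts or to counts outside hemoglobin, either no filter or a minimum of 10 counts in each library, a joint fit of the 8 libraries, a block for the replicate number, other call rules, and the omission of single libraries. The total count per library, 4149104 to 13205565, sets the precision, and intervals cover counting error only. Promoters and chromosomes are those of RefSeq for GRCr8, another assembly than that of the alignment, and no coordinates were converted.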

Additional observations from a re-analysis of the deposited data

Results flagged for a closer look

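Ndufa12 and Ndufs4 are accessory subunits of the peripheral arm. Under TMM, both libraries after CMG lay below both before it in the AngII model and above both in the DOCA–HS model for these genes. The difference of the log2 changes, DOCA–HS minus AngII, was 1.26 for Ndufa12 (SE 0.52, unadjusted p of 0.0353) and 1.05 for Ndufs4 (SE 0.53, unadjusted p of 0.0763), each with an adjusted p of 0.881 in edgeR's quasi-likelihood test. The CPM of Ndufs4 in the AngII model was 4.56 and 4.05 before and 3.04 and 2.22 after CMG. In the DOCA–HS model the separation was small for both genes, and neither lay apart when scaled to total counts or to counts outside hemoglobin. The log2 fold change of Ndufa12 there turned from 0.37 to -0.40 and -0.05 under these scalings.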

How the results depend on the processing

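With DESeq2, with its size factors, with limma-voom, without a filter, with a minimum of 10 counts, with the replicate block and in 1 fit of all 8 libraries, the median of the members stayed below 0 in the AngII model and above 0 in the DOCA–HS model, at 0.16 with limma-voom in the latter, while the scaling changed it further. Scaled to total counts, the medians were -0.031 in the AngII model, -0.45 in the DOCA–HS model and -0.43 for the difference of the changes. Between the models they were 0.63 before and 0.040 after CMG. Over all genes these 5 medians were 0.36, -0.76, -1.21, 0.86 and -0.35. Scaled to counts outside hemoglobin, the members' medians were -0.023 in the AngII model, 0.050 for the difference and 0.56 before CMG. Over all genes these were 0.38, -0.89 and 0.78. Members called were 0 in the DOCA–HS model, for the difference and after CMG under both scalings. Of all genes, 0.117%, 0.4% and 0.25% were called there under total counts, and 0.415%, 2.05% and 0.876% outside hemoglobin.

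In the AngII model 1 member was called with no filter (Ndufa1), where 1.8% of all genes were, and 5 by the unadjusted p alone. In the DOCA–HS model 2 were called with DESeq2, its size factors, no filter or all 8 libraries in 1 fit (2.15% to 2.84% of all genes), 0 with a minimum of 10 counts (1.2%), and 0 by adjusted p. For the difference 6 were called with DESeq2, 6 with no filter, 1 with limma-voom and 1 with a minimum of 10 counts, where 3.9%, 4.93%, 3.43% and 1.52% of all genes were, and 5 by unadjusted p alone. Before CMG 1 was called with no filter (1.25% of all genes) and 1 by unadjusted p alone (1.49% higher and 1.89% lower). After CMG 2 were called with DESeq2, 0 with limma-voom and 0 with a minimum of 10 counts (2.06%, 2.11% and 0.61% of all genes). With the replicate block, members called were 0 in both models, where 1.46% (AngII) and 1.83% (DOCA–HS) of all genes were. Ndufa11 was then at 1.43 in the DOCA–HS model (unadjusted p of 0.0145 in edgeR). Members called were 4 for the difference (5.68% of all genes), 0 before CMG (0.876%) and 1 after it (1.44%). The members' medians with the block were -0.41 and 0.49 in the AngII and DOCA–HS models. Neither the labels nor the methods pair the libraries by number, and the deviations of same-numbered libraries correlated at 0.474 and 0.321 across 7118 genes. The cause of these changes was not tested.

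With each library left out in turn, members called ranged over 0 to 1 in the AngII model (median -0.60 to -0.28), 0 to 14 in the DOCA–HS model (median -0.18 to 1.27), 1 to 18 for the difference (0.21 to 1.67), 0 to 1 before CMG (-0.43 to -0.14) and 0 to 13 after CMG (-0.089 to 1.38). The lone library of a group was then assumed to vary like the others. The highest counts in the DOCA–HS model, for the difference and after CMG came without the first DOCA–HS library after CMG, and the lowest medians without the second. Without the first, 19.1%, 23.2% and 18.1% of all genes were called in these 3 comparisons, and without the second, 1.11%, 1.92% and 0.836%.

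Of the single genes named, 46 values turned in sign. The others were read by an unadjusted p of at most 0.05 alone, without the fold threshold. By it, 300 kept direction and side, 41 lost that p and 13 gained it. In the AngII model, Ndufs7, Ndufs8 and Ndufv1 were at 0.22, 0.026 and 0.39 scaled to total counts and at 0.22, 0.035 and 0.41 outside hemoglobin, and Ndufv1 at 0.024 with a minimum of 10 counts. With 1 library left out there, values ranged from -0.43 to 0.061 for Ndufs7, -0.29 to 0.14 for Ndufv1 (0.093 without the second before CMG), -0.21 to 0.45 for Ndufv2, -0.18 to 0.65 for Ndufb7, -1.01 to 0.17 for Ndufa11 and -0.062 to 0.66 for Ndufs1. In the DOCA–HS model, Ndufa12, Ndufa4, Ndufa7, Ndufb11, Ndufb4, Ndufb7, Ndufc2, Ndufs7, Ndufs8 and Ndufv2 were at -0.40, -0.63, -0.19, -0.20, -0.44, -0.38, -0.82, -0.31, -0.63 and -0.50 scaled to total counts, and Ndufa12, Ndufa4, Ndufc2, Ndufs8 and Ndufv2 at -0.050, -0.25, -0.36, -0.067 and -0.033 outside hemoglobin. Ndufc2 was at -0.092 with limma-voom, Ndufa4 and Ndufc2 at -0.080 and -0.22 with a minimum of 10 counts, and Ndufv1 at 0.0089 with DESeq2. Left-out ranges there were -0.40 to 2.03 for Ndufa7, -0.014 to 1.72 for Ndufb11, -0.043 to 2.71 for Ndufb2, -0.49 to 1.76 for Ndufb4, -0.61 to 2.06 for Ndufb7, -0.34 to 0.67 for Ndufc2 (-0.075 without the first before CMG), -0.65 to 0.16 for Ndufs3 (0.094 without the first after CMG), -0.12 to 1.66 for Ndufs7, -0.33 to 1.27 for Ndufs8 and -0.20 to 0.11 for Ndufv1 (0.098 without the first before CMG). Depth limits single values most in the second DOCA–HS library after CMG, where those of Ndufs1 and Ndufs5 rest on 2 and 1 counts. The alternatives for the other respiratory chain genes and the platelet markers were chosen after seeing the data.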

Other observations

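In the second DOCA–HS library after CMG, against the first library before it, the median log2 difference was -0.06 for the 7 core subunits, 1.24 for the accessory subunits of the peripheral arm and 1.85 for those of the membrane arm, with -0.30 over all genes tested in both models. Against the second library before CMG, the same medians were 0.59, 1.08 and 1.55, with -0.27 over all genes.

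Among the assembly factors, the log2 fold change of Ecsit in AngII rats was 1.26 (SE 0.54, unadjusted p of 0.0490, adjusted p of 0.747 in edgeR), that of Dmac1 was -1.40 (SE 0.48, unadjusted p of 0.0189, adjusted p of 0.628 in edgeR), and that of Ndufaf8 in DOCA–HS rats was 1.95 (SE 0.87, unadjusted p of 0.0539, adjusted p of 0.997 in edgeR). Ndufaf8 had 47 and 26 counts before and 36 and 31 after CMG in DOCA–HS rats. A count was worth 0.0554 and 0.106 CPM in the libraries before and 0.0769 and 0.703 CPM in those after CMG. Its higher value therefore rested on the second library after CMG. All 3 genes were chosen after their values were seen.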
